A study of Mus musculus with 6 samples.

Results

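The myosin heavy chain genes of the heart were followed in mouse pups in which thyroid hormone signalling was blocked in heart muscle cells. The 9 genes were taken by name from the 20121 genes counted: Myh6, Myh7, Myh7b, Myh8, Myh3, Myh9, Myh10, Myh11 and Myh14. RNA was sequenced from tissue labelled heart at postnatal day 14, on a mixed background of ICR and C57BL/6. The atrial genes Myl7 and Sln were near 0 in every library and do not bear out the label for atria. Nppa, Myl4 and Nr2f2, from the same list, were counted in every library. The 3 control pups had the genotype TRalphaAMI, a knock-in at which Cre recombinase turns on an altered thyroid hormone receptor alpha that blocks the normal receptors. The 3 mutant pups were littermates with the genotype Myh6-Cre; TRalphaAMI, so both groups held the knock-in and only the mutants held Cre. The Cre is a transgene named for Myh6, one of the genes measured here, and acts in cardiomyocytes. A group with Cre alone was not analysed here, and what Cre itself does cannot be told apart from what the receptor does. All p-values reflect only how much these 6 hearts differ.

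Myosin II motors are built from a pair of heavy chains, each with a motor head that splits ATP and a long tail, and from light chains bound at the neck. The alpha heavy chain encoded by Myh6 is a fast ATPase and the beta chain encoded by Myh7 a slow one that uses less ATP for the same force. In rodents the ventricle makes mostly beta chain before birth and turns to alpha chain after it, when thyroid hormone rises. The hormone is known to raise Myh6 and lower Myh7.

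Myh6 and Myh7 lie head to tail on the minus strand of chromosome 14, Myh6 at chr14:54941921-54966927 and Myh7 at chr14:54970684-54994626 (mm10), with 3756 bases between them. Their coding sequences were identical at 91.7% of 5802 aligned bases, and of all stretches of 75 bases in the Myh6 transcript 15.6% also occurred in Myh7. A read from such a stretch cannot be assigned to either gene by sequence. The pair below shows where reads can be told apart: within 1 exon, these were the 60 coding bases with the most differences, 24 in all, which are in capitals. The Myh6 window is in exon 25 at chr14:54952277-54952336 and the Myh7 window in exon 27 at chr14:54980352-54980411, both read 5′ to 3′ on the minus strand.
Myh6: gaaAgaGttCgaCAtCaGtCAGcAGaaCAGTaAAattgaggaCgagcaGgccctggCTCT
Myh7: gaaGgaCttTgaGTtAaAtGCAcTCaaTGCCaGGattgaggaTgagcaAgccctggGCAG

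The sequences just before the start sites of the 3 genes of cardiac type are shown because the receptor that was altered acts through DNA near its target genes. Each is the 250 bases before a RefSeq start site on GRCm38.p6, read 5′ to 3′ on the gene's strand. Myh7 had another RefSeq window, chr14:54994550-54994799, which is not shown. In capitals are GGAATG, the core bound by TEAD factors, in Myh6 and Myh7, a loose direct repeat of the type bound by nuclear receptor dimers in Myh6, and TCAAGGTCA, the site of estrogen-related receptors, in Myh7b. The last 2 match on the opposite strand, so their capitals are the reverse complement of the motif.
Myh6, chr14:54966608-54966857: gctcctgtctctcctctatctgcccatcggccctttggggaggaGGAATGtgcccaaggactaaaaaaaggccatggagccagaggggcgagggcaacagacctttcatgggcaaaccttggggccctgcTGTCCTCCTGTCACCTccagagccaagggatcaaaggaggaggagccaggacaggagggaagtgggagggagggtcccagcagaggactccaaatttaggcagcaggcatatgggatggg
Myh7, chr14:54994627-54994876: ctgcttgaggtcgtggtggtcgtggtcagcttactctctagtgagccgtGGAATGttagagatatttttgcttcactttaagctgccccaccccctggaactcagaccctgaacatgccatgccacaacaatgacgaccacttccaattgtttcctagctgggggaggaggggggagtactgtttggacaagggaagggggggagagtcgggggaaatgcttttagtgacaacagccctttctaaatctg
Myh7b, chr2:155610993-155611242: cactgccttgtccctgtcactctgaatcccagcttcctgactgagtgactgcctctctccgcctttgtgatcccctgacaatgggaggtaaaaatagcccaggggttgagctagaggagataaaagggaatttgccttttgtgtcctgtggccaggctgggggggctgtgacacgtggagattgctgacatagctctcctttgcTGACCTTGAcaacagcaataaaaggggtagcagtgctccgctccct

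Both strands were searched for the half-site AGGTCA, for its extended form TCAAGGTCA, for a direct repeat of AGGNNA spaced by 4 bases, for the TEAD core GGAATG, for the TATA box (TATAAA) and for the CArG box in RefSeq promoter windows of the same length, where 8 of the 9 genes had an entry. The loose repeat of AGGNNA, chosen after the Myh6 sequence was seen, matched once in Myh6, from 120 to 105 bases before the start. It did not match in either Myh7 window. The repeat matched 3 times in Myh7b, the last of these overlapping TCAAGGTCA, and 2.2% of 32851 windows held it. TCAAGGTCA, which contains AGGTCA, matched in Myh7b from 46 to 38 bases before the start and in 0.387% of windows. GGAATG lay from 206 to 201 bases before the Myh6 start and from 201 to 196 bases before the Myh7 start shown above. The other Myh7 window did not hold GGAATG, and 12.6% of all windows did. Among the other members with an entry, Myh10 also held GGAATG, and none held a nuclear receptor motif. These matches describe the letters only.

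Each gene was compared between the groups by the quasi-likelihood test of edgeR, and p-values were adjusted over all genes tested. CPM is a gene's count relative to its library size after TMM scaling for composition. RPKM is the deposited value, a count relative to gene length and to the library total without TMM scaling. It was used wherever genes were set against each other. Libraries held 43314706 to 62095277 counts, of which the mitochondrial genome took 22.4% to 24.9% in controls and 16.7% to 18.8% in mutants. Of 14877 genes tested, 37.5% were called at an adjusted p under 0.05, 18.1% higher and 19.5% lower in mutants. With library totals alone, 86.1% of calls were higher, against 48.1% with TMM, and the median log2 fold change of all genes was 0.28 instead of 0.00. Of the 9 heavy chain genes 8 were tested, and Myh3 was removed for low counts. In mutants 4 were called higher (Myh7, Myh7b, Myh8 and Myh10) and 2 lower (Myh6 and Myh14), while Myh9 and Myh11 did not pass the test. Myh8 passed the filter on low counts through its level in mutant hearts. Among all genes tested, the CPM of the groups did not overlap for 49.8%.

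The 2 cardiac sarcomere genes exchanged places. Myh6 stood at 35132, 38919 and 37744 CPM in the control hearts and at 3658, 3512 and 4321 CPM in the mutants. It fell 9.73-fold (log2 fold change -3.28 ± 0.10 SE, edgeR adjusted p 7.64e-08, higher in 3 of 3 controls than in any mutant). By log2 fold change it ranked 33 from the lowest of 14877 genes. Myh7 stood at 273, 296 and 387 CPM in controls and 17030, 18477 and 18741 CPM in mutants. It rose 56.7-fold (log2 fold change 5.83 ± 0.15 SE, edgeR adjusted p 3.24e-08), the third highest log2 fold change of all genes tested. Within neither group did the hearts spread by more than 1.5-fold for either gene, far less than the distance between groups.

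Per length, the control hearts held 132 to 178 times more Myh6 than Myh7, and the mutants 3.21 to 3.89 times more Myh7 than Myh6. Myh7 made up 0.571%, 0.559% and 0.753% of the summed RPKM of the pair in control hearts and 77.5%, 79.5% and 76.2% in mutants. The mean share was 0.628% ± 0.109 (SD, n = 3) against 77.8% ± 1.68 (SD, n = 3). An exact two-sided permutation test gave p = 0.1, the smallest that 3 hearts against 3 allow. The share rests on the gene length. For Myh7 the deposited RPKM implies a length of 8635 bases, near the 8616 bases of all its annotated exons. Those exons include a transcript with a retained intron, and the longest coding transcript has 6230 bases. For Myh6 the implied length is 6383 bases, against 6726 for all annotated exons and 6113 for the longest coding transcript. Per coding transcript length the Myh7 share was 0.740% to 0.997% in controls and 81.0% to 83.8% in mutants. The low Myh7 level of the controls is the less certain of the 2, since their Myh7 counts were 0.760% to 1.03% of their Myh6 counts and how reads shared by both genes were counted is not given in the sources used here.

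**Figure D1:**
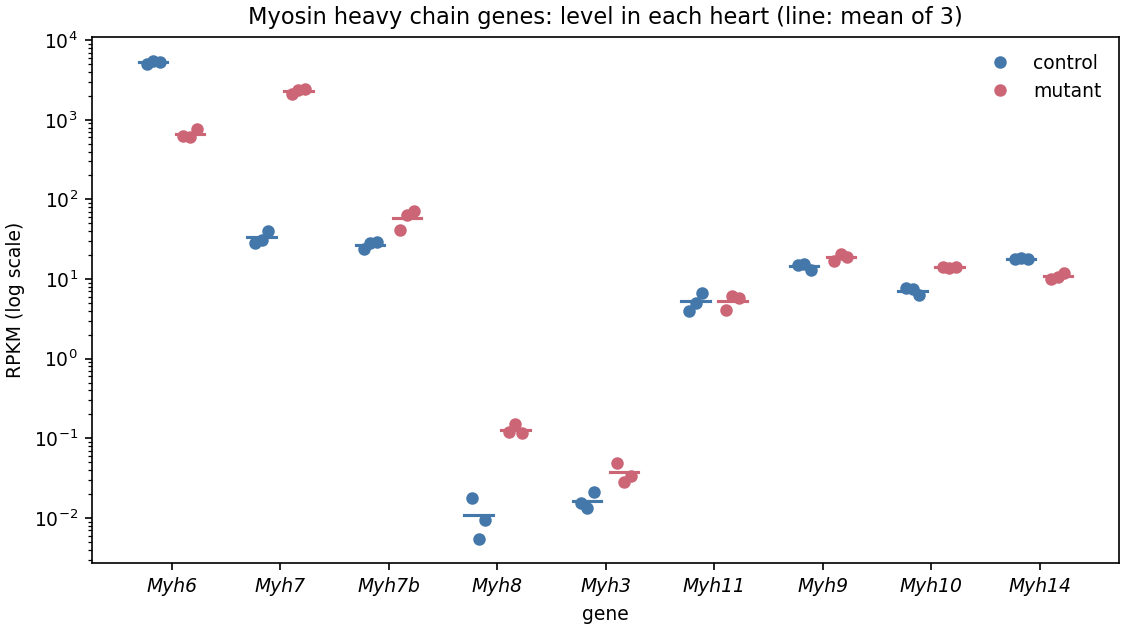
RPKM of each heavy chain gene in each heart, on a log scale, with 3 control hearts in blue, 3 mutant hearts in red and a line at each mean. Myh6 and Myh7 change places near the top, and the 2 groups overlap in Myh11.

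An unstranded kit does not tell antisense reads from sense reads over shared exons, and how such reads were counted is not given in the sources used here. Mhrt, a noncoding RNA antisense to Myh7, shared 5.62% of the exon bases of Myh7. It fell from 86.7 ± 19.7 to 16.1 ± 2.54 CPM (SD, n = 3 each), the opposite direction to Myh7, and its counts were 24.7% to 28.4% of the Myh7 counts in the control libraries and 0.0779% to 0.0979% in the mutants. The part of such reads in the low control level of Myh7, and so in its fold change, was not tested. A further antisense gene model, Gm31251, covered 6.07% of the Myh7 exons and was not analysed here.

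The gain of Myh7 did not make up the loss of Myh6. Summed RPKM of the pair was 5012, 5565 and 5392 in controls and 2751, 2974 and 3196 in mutants, and the groups did not overlap. The mutant mean was 55.9% of the control mean on the deposited scale. RPKM carries no correction for composition, and with TMM-scaled library sizes the mutants held 45.8% of the control level. Relative to the geometric mean of 7 thin filament genes in the same heart they held 67.5%, and per coding transcript length 70.0% (57.4% with TMM). That geometric mean was itself lower in mutants, at 590 ± 45.0 RPKM against 712 ± 42.35 in controls (SD, n = 3 each), without overlap. The 67.5% is thus relative to a reference that also fell. On each of these 5 scales every mutant heart lay below every control heart, and the size of the gap depended on the scale. As a share of all counts, Myh6 and Myh7 together took 3.40% ± 0.181 in controls and 2.42% ± 0.177 in mutants (SD, n = 3 each). In bulk tissue, fewer cells of a type and less RNA per cell cannot be told apart. Of the 9 cardiomyocyte markers edgeR called none higher and 5 lower, and 4 did not pass. Of all genes tested 18.1% were called higher and 19.5% lower. All but Ryr2 of these 5 markers are also counted in the light chain or thin filament lists below. Among those called, Ryr2, the calcium release channel, fell 2.13-fold (adjusted p 6.35e-06). With library totals alone 2 were higher and 3 lower. Their summed level ran from 46924 to 52734 CPM in controls and from 39788 to 41351 CPM in mutants, and the part this had in the result was not tested.

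**Figure D2:**
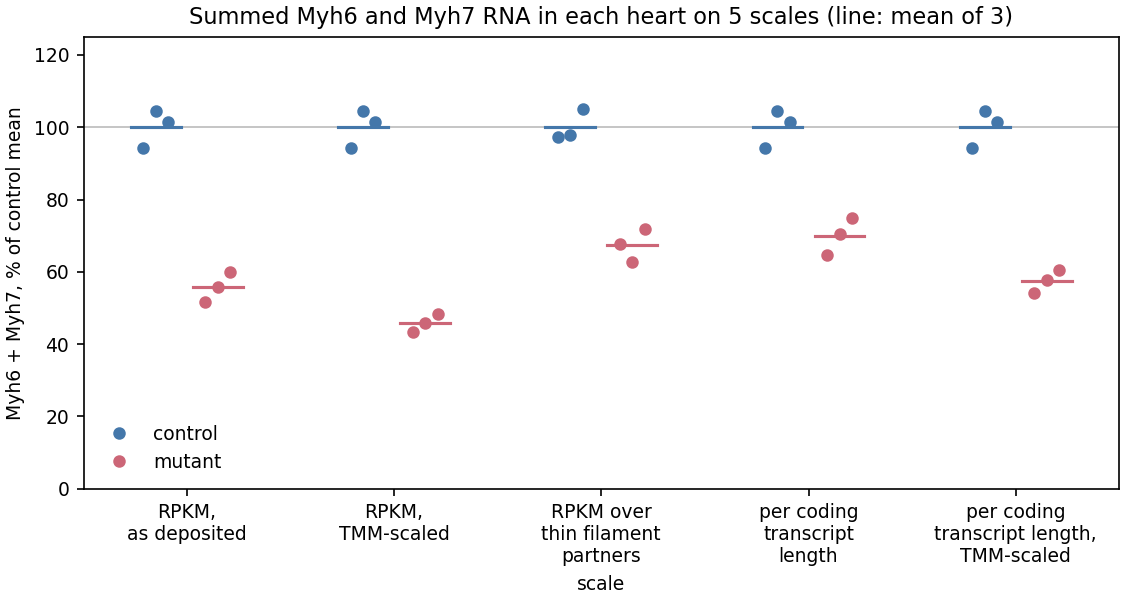
Summed level of Myh6 and Myh7 in each heart as a percentage of the control mean, on 5 scales, with controls in blue, mutants in red and lines at the means. Mutant means lie between 45.8% and 70.0% of control, and the groups overlap on none of the scales.

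Over all 9 genes, Myh6 held 98.0% ± 0.102 of the summed heavy chain RPKM in controls and 21.5% ± 1.63 in mutants, and Myh7 0.619% ± 0.107 and 75.04% ± 1.59 (SD, n = 3 each). A gene's share also rises when the sum falls. Myh9 rose from 0.270% ± 0.0321 to 0.610% ± 0.0436 of the total although its own level did not pass the test. Myh14 is the exception among the minor genes, with 0.335% ± 0.0169 in controls and 0.352% ± 0.0106 in mutants, values that overlapped.

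**Figure D3:**
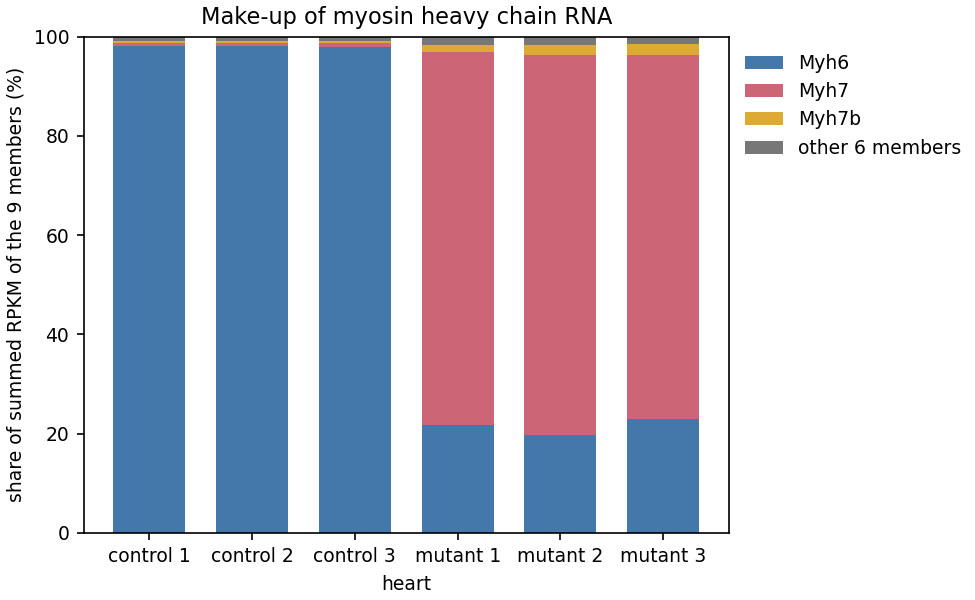
Share of the summed RPKM of the 9 heavy chain genes held by Myh6, Myh7, Myh7b and the other 6 genes, in percent, with 1 bar for each heart. Myh6 fills 97.9% to 98.1% of each control bar and 19.7% to 22.9% of each mutant bar.

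Myh7b (chr2:155611212-155634307, plus strand) encodes a slow-type chain related to the beta chain, and is known for making little protein in heart from much of its RNA. Its CPM was 176, 209 and 213 in controls and 255, 384 and 423 in mutants. The groups did not overlap, and mutant replicate 1 lay nearer to the controls than the other mutants did. It rose 1.77-fold (log2 fold change 0.83 ± 0.16 SE, edgeR adjusted p 0.00339), and without any single heart the log2 fold change ran from 0.67 to 1.02 with an adjusted p of at most 0.0175. In RPKM it stood at 27.1 ± 2.76 in controls, where its range overlapped that of Myh7 (33.4 ± 6.33) but did not per coding transcript length, and at 58.7 ± 15.6 in mutants, far below Myh7 (2311 ± 159; SD, n = 3 each). The log2 ratio of Myh7b to Myh7 went from -0.29 ± 0.18 to -5.33 ± 0.31 (SD, n = 3). The 2 genes of slow type thus rose by very different amounts in the same hearts. No stretch of 75 bases of Myh7b occurred in another heavy chain gene, and its exons shared 0.558% of their bases with Trpc4ap on the other strand.

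Myh8 and Myh3 encode the perinatal and embryonic chains of skeletal muscle and lie in the skeletal cluster on chromosome 11, at chr11:67277124-67308634 and chr11:67078300-67102291, both on the plus strand. Myh8 had 9, 4 and 6 counts in the control libraries and 66, 82 and 67 in the mutants. The groups did not overlap, and the gene was near its detection limit in controls. It passed the filter on low counts through its level in mutant hearts, so its call is not separate support for a rise beyond these counts. It rose with a log2 fold change of 3.36 ± 0.33 SE (edgeR adjusted p 4.51e-05), and the ratio of summed counts, scaled by library size, was 10.5 (exact 95% interval 6.57 to 17.8, counting error only). Myh3 had 4, 5 and 7 counts in controls and 14, 8 and 10 in mutants, and was not tested; the scaled ratio was 1.86 (0.99 to 3.63). Mutant RPKM was 0.129 ± 0.0189 for Myh8 and 0.0372 ± 0.0106 for Myh3 (SD, n = 3 each), against 2311 for Myh7. Reads of Myh8 are uncertain in part, since 12.9% of its stretches of 75 bases occur in other heavy chain genes and 89.3% of its coding bases match Myh1.

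A rise was not seen in Myh1, Myh2 or Myh4, the adult fast skeletal chains. The libraries of each group together held 21 and 9 counts of Myh1 (ratio 0.398, exact 95% interval 0.161 to 0.907), and 29 and 15 of Myh2 (0.480, 0.239 to 0.926), controls first. Myh4, the only 1 of them tested, had 37 and 25 counts (log2 fold change -0.69, edgeR adjusted p 0.268). Myh13, the chain of eye muscles, had 7 counts in controls and 25 in mutants (ratio 3.32, 1.39 to 9.08). The intervals of Myh1, Myh2 and Myh13 cover counting error only and not the spread between hearts. None of these genes was tested, and the Myh1 groups overlapped in CPM. Of the skeletal muscle markers, a list that includes Myh1 and Myh4, 8 of 10 were in the tables and 4 were tested. None was called higher, and Tnni2, the fast troponin I, fell 3.25-fold (adjusted p 0.000103). These counts stand beside 18.1% higher and 19.5% lower over all genes tested, and 4 genes are too few to set against those shares. The summed markers stood at 3.75 to 4.64 CPM in controls and 2.41 to 2.67 CPM in mutants, and the myogenic factors Myf5 and Myog had at most 3 counts in every library.

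Myh11, the smooth muscle chain (chr16:14194535-14291372, minus strand), stood at 29.2, 37.2 and 49.8 CPM in controls and 25.2, 36.8 and 34.0 CPM in mutants. The groups overlapped and the difference did not pass the test (log2 fold change -0.28 ± 0.19 SE, edgeR adjusted p 0.28), and with library totals alone its sign turned (0.01). Relative to its mean, control hearts spread more for this gene than for any other tested member but Myh8. Of the 8 smooth muscle markers 2 were called higher, 1 lower and 5 did not pass, and with library totals alone 4 were higher and 1 lower. All genes tested gave 18.1% higher and 19.5% lower with TMM. Cnn1, the actin-binding calponin, rose 3.495-fold from 0.790 CPM (adjusted p 0.00123), and Synpo2, which binds actin and is also expressed in heart muscle, fell 2.86-fold (adjusted p 4.17e-07). Smtn, with 16.3% of its exon bases under a gene on the other strand, rose 1.23-fold (adjusted p 0.037), a call lost without control replicate 1 (0.117) or 2 (0.0728), or without mutant replicate 2 (0.0791) or 3 (0.141). Their summed level ran from 654 to 746 CPM in controls and from 683 to 782 CPM in mutants, which overlapped as Myh11 did.

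The nonmuscle chains drive cell shape, adhesion and the contractile ring that divides cells. Myh9 encodes nonmuscle heavy chain IIA (chr15:77760587-77842175, minus strand), Myh10 IIB (chr11:68691559-68816632, plus strand) and Myh14 IIC (chr7:44605803-44670843, minus strand). The 3 genes took 3 different courses in the same hearts. Myh9 stood at 218, 223 and 185 CPM in controls and 203, 239 and 222 CPM in mutants, which overlapped (log2 fold change 0.08 ± 0.09 SE, edgeR adjusted p 0.502). With library totals alone it was called higher (0.37, adjusted p 0.00709), as it was by limma on RPKM, which has no composition scaling either. Its deposited RPKM ran from 12.9 to 15.6 in controls and from 16.8 to 20.4 in mutants, without overlap.

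Myh10, which is high in the embryonic heart, had 88.7, 87.4 and 72.5 CPM in controls and 138, 132 and 133 CPM in mutants. All mutant hearts lay above all controls, and Myh10 rose 1.62-fold (log2 fold change 0.69 ± 0.08 SE, edgeR adjusted p 0.000143). Myh14 had 145, 147 and 144 CPM in controls and 68.1, 69.5 and 78.1 CPM in mutants, again without overlap. It fell 2.03-fold (log2 fold change -1.02 ± 0.07 SE, edgeR adjusted p 4.22e-06). The SD of its control hearts was 1.56 CPM.

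Summed RPKM of the 3 nonmuscle genes was 39.7 ± 2.42 in controls and 43.7 ± 2.28 in mutants (SD, n = 3 each), and the groups overlapped. On this scale the make-up changed more than the total. Deposited RPKM carries no correction for composition, and the TMM factors were 0.9049 to 0.9075 in controls and 1.082 to 1.124 in mutants. Dividing by them raises the control sums and lowers the mutant sums, so the direction of the total depends on the scale. Shares within a heart do not depend on it. Myh14 went from 45.5% ± 2.39 in controls to 24.8% ± 1.503 in mutants. Myh10 went from 17.9% ± 0.936 to 32.2% ± 1.95, and Myh9 from 36.6% ± 1.51 to 42.9% ± 2.34. As log2 ratios within each heart, Myh10 to Myh9 went from -1.03 ± 0.03 to -0.41 ± 0.15, and Myh14 to Myh9 from 0.31 ± 0.13 to -0.79 ± 0.15 (SD, n = 3 each). For each of the 5 log2 ratios computed among members an exact two-sided permutation test gave p = 0.1, also 0.1 after adjustment over the 5, the smallest the design allows. The gene lengths implied by the deposited RPKM of Myh9 and Myh10 exceed their longest coding transcripts (13002 against 7433 bases, and 10518 against 7759), which lowers their RPKM. Per coding transcript length the shares in controls and mutants were 36.7% ± 2.24 and 19.0% ± 1.27 for Myh14, 17.4% ± 0.780 and 29.8% ± 1.95 for Myh10, and 45.9% ± 1.52 and 51.2% ± 2.39 for Myh9 (SD, n = 3 each), so each share moved the same way, while Myh9 and not Myh14 was the largest in controls.

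**Figure D4:**
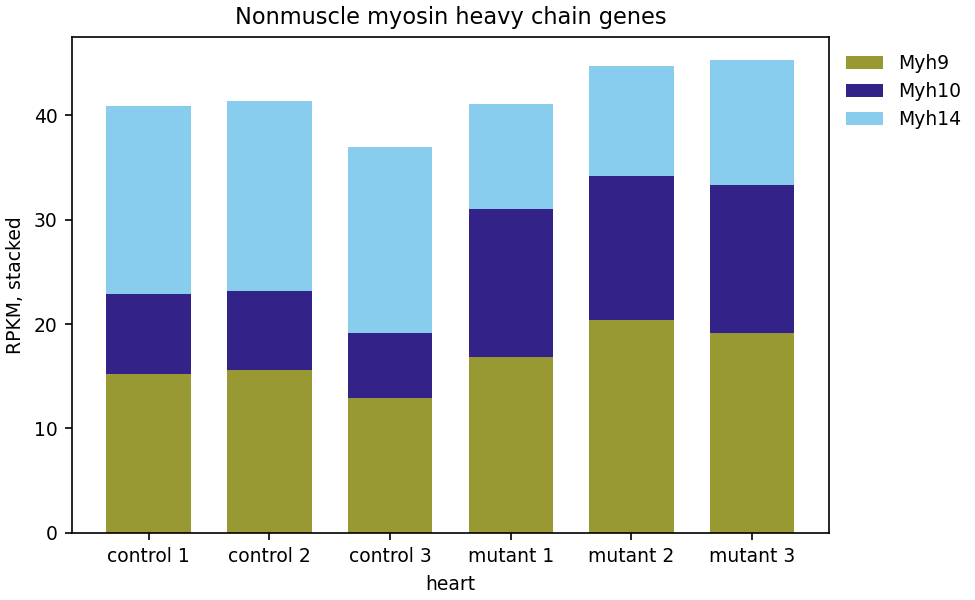
Stacked RPKM of Myh9, Myh10 and Myh14, with 1 bar for each heart. The bars end between 37.0 and 41.4 in controls and between 41.0 and 45.3 in mutants, while the Myh14 part shrinks and the Myh10 part grows.

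Ordered by RPKM, the control hearts held Myh6, then Myh7 and Myh7b, which overlapped, then Myh14 (18.0 ± 0.221), Myh9 (14.6 ± 1.46), Myh10 (7.14 ± 0.779) and Myh11 (5.26 ± 1.41), of which the last 2 overlapped, and Myh3 and Myh8, which also overlapped. The mutants held Myh7, Myh6 (663 ± 84.4), Myh7b, Myh9 (18.8 ± 1.78), Myh10 (14.0 ± 0.188), Myh14 (10.8 ± 1.00), Myh11 (5.31 ± 1.07), Myh8 and Myh3, with no overlap between neighbours. Per coding transcript length the control order differed: Myh7 lay above Myh7b without overlap, Myh7b overlapped Myh9, Myh9 (25.4 ± 2.56) lay above Myh14 (20.3 ± 0.248), and Myh8 stood before Myh3 with overlap. The mutant order was the same on both scales. On both, Myh6 and Myh7 exchanged places at the top and Myh14 moved from above to below Myh10.

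Myosin light chains bind the neck of the heavy chains. Of 10 tested, 2 were called higher and 4 lower, with a median log2 fold change of -0.04 beside 0.00 over all genes tested. With library totals alone 5 were higher and 2 lower. Over all genes tested 18.1% were called higher and 19.5% lower with TMM. Myl3, the ventricular essential chain, fell 1.81-fold (edgeR adjusted p 1.28e-05). Myl1, of fast skeletal muscle, fell 2.97-fold from 7.37 CPM (0.00111). Myl12a, a regulatory chain of nonmuscle myosin whose exons overlap Myl12b, fell 1.29-fold (0.00218), a call lost with library totals alone (0.309). Myom1, at a mean of 1938 CPM in controls, covered 6.16% of the Myl12a exon bases on the other strand. Myl9, the regulatory chain of smooth and nonmuscle myosin, rose 2.84-fold from 42.5 ± 3.88 to 121 ± 17.1 CPM (7.66e-06), in hearts where Myh11 overlapped between groups and Myh10 rose.

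The factors that fold myosin and place it in the sarcomere gave 4 calls higher and 1 lower among 10 tested, with a median of 0.08, and 8 higher and 1 lower with library totals alone. All genes tested gave 18.1% higher and 19.5% lower with TMM. Unc45b, the muscle myosin chaperone, stood at 232 ± 13.1 CPM in controls and 226 ± 16.9 CPM in mutants, and Smyd1, the methyltransferase needed for thick filament assembly, at 574 ± 24.5 and 527 ± 5.55 CPM (SD, n = 3 each); neither passed the test, and both are named after their values were seen. Hsp90aa1, a chaperone that works with Unc45b, rose 1.84-fold (edgeR adjusted p 4.48e-05), and Smyd2, a methyltransferase with 30.0% of its exon bases under a gene on the other strand, rose 1.32-fold (0.00194). Of the muscle ring finger genes, Trim55 rose 2.15-fold (1.91e-06) and Trim63, named after its values were seen, 1.15-fold (0.0465). Trim54 fell 7.21-fold from 50.04 ± 7.70 to 6.94 ± 1.00 CPM (6.62e-07), with 26.6% of its exon bases under a gene on the other strand.

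Partners within the thick filament and M-band gave 2 calls higher, none lower and 6 not called among 8 tested, with a median of 0.10, and 6 higher with library totals alone. Mybpc2, the fast skeletal myosin-binding protein C, rose 2.76-fold from 11.4 ± 1.41 to 31.5 ± 5.31 CPM (edgeR adjusted p 2.8e-05), and Obsl1, an M-band linker, rose 1.40-fold (0.00614). Of 7 thin filament genes 4 were called lower and none higher, with a median of -0.37, and with library totals alone 2 were lower and 1 higher. Among all genes tested 19.5% were called lower and 18.1% higher with TMM. Tpm1, the main cardiac tropomyosin, fell 2.16-fold (3.95e-06), Tnni3, cardiac troponin I, 2.41-fold (3.59e-06), and Tnnc1, cardiac troponin C, 1.29-fold (0.00376). Actc1, cardiac actin, fell 1.23-fold (0.0163), a call lost without mutant replicate 1 (0.0587). The calls of Tnnc1 and Actc1 were also lost with library totals alone (0.386 and 0.892).

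**Figure D5:**
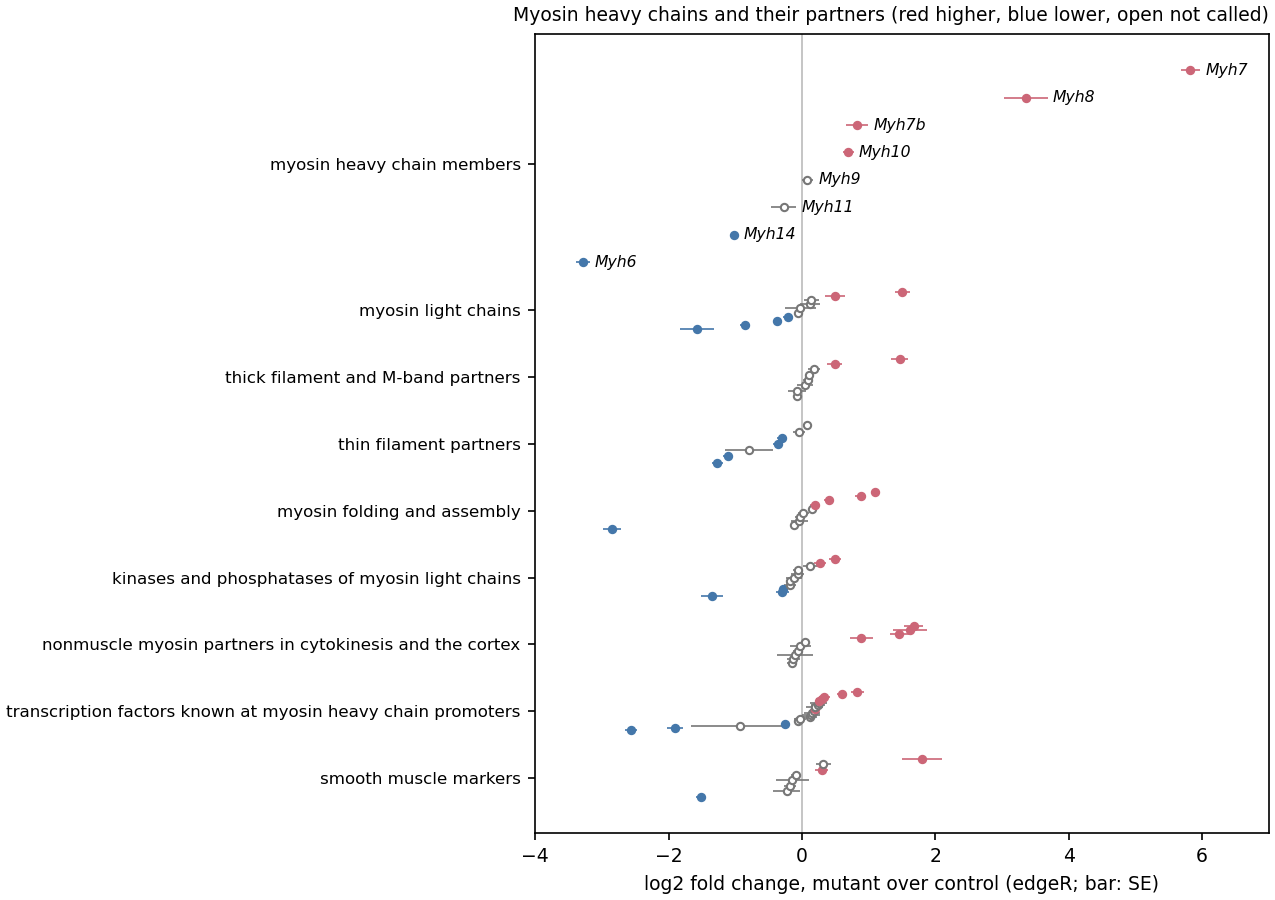
log2 fold change of mutant over control hearts with SE bars for the heavy chain genes tested and for 8 lists of partners, regulators and smooth muscle markers, with genes called higher in red, lower in blue and not called as open circles. The heavy chain genes run from -3.28 to 5.83, wider than any of the other lists shown.

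Kinases and phosphatases of the light chains gave 2 calls higher and 3 lower among 11 tested, with a median of -0.12, and 4 higher and 1 lower with library totals alone. The TMM counts stand beside 18.1% higher and 19.5% lower over all genes tested. Mylk4, a kinase of the cardiac regulatory chain, fell 2.55-fold (edgeR adjusted p 0.000241). Ppp1r12a, the targeting subunit of smooth muscle myosin phosphatase, rose 1.41-fold (0.0014), and Ppp1r12b, the form of striated muscle, fell 1.21-fold (0.00611), which with library totals alone was a log2 fold change of 0.01. Mylk3, the main cardiac light chain kinase, fell 1.23-fold (0.0411), a call lost without control replicate 1 (0.071) or 3 (0.124), without mutant replicate 1 (0.0984) or 2 (0.0695), and without the mitochondrial genome (0.052).

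Nonmuscle heavy chains work with partners in cytokinesis and the cell cortex. Of these, 4 genes were called higher and none lower among 10 tested, and 6 higher with library totals alone. Among all genes tested 18.1% were called higher and 19.5% lower with TMM. Anln, the ring scaffold anillin, rose 3.19-fold from 2.56 ± 0.275 to 8.19 ± 1.11 CPM (edgeR adjusted p 1.59e-05), Ect2, which activates RhoA, 3.08-fold (0.000831), Racgap1, its partner at the midzone, 2.75-fold (4.64e-05), and Kif23, the midzone kinesin, 1.86-fold (0.00235). The 6 not called were Rhoa, Cit, Tpm3, Tpm4, Actb and Actg1, and the median was 0.01. Myh10 was also called higher in these hearts, and Myh9 did not pass the test. A link of Myh10 to the 4 genes called was not tested.

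Of 19 transcription factors tested that are known at heavy chain promoters, 6 were called higher, 3 lower and 10 did not pass, with a median of 0.18. The receptor genes themselves are among them: Thra rose 1.78-fold (edgeR adjusted p 0.000101), and Thrb fell 5.92-fold from 34.5 ± 2.99 to 5.82 ± 0.274 CPM (1.15e-07). Reads of the knock-in, where they map to Thra, cannot be told apart in the Thra count. Nr1d1 covered 5.7% of the Thra exon bases on the other strand. Rxrg, a dimer partner of the receptors, fell 3.74-fold (4.05e-06), and Gata6, a cardiac zinc finger factor, rose 1.52-fold (0.000149). With library totals alone 15 of the 19 were called higher and 2 lower. Over all genes tested TMM gave 18.1% higher and 19.5% lower.

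The label heart was checked against chamber genes, since Myh6 is the main heavy chain of atria at all ages. The atrial light chain Myl7 had 3 to 22 counts per library and the atrial regulator Sln 0 to 8. Ventricular Myl2 had 277821 to 441777 counts. Myl7 and Sln were thus near 0 and do not bear out the label for a heart with its atria. Nppa, Myl4 and Nr2f2, from the same list, were counted in every library. Nr2f2 stood at 24.1 ± 2.55 CPM in controls and 20.7 ± 0.869 CPM in mutants (SD, n = 3 each) and did not pass the test (edgeR adjusted p 0.0732). Nppa, an atrial peptide that ventricles also make, rose 6.01-fold (edgeR adjusted p 1.93e-07), with 61.5% of its exon bases under Gm13054 on the other strand, which stood at 0.102 to 0.195 CPM in controls and 0.589 to 1.02 CPM in mutants. Myl4, an atrial light chain, rose 1.41-fold (0.0257), a call lost without control replicate 1 (0.0584) or 2 (0.0996) or without mutant replicate 2 (0.112).

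The genes most like Myh6 over the 6 hearts, by Pearson's r of log2 CPM among 8602 genes at a mean of at least 10 CPM, were Pla2g5, Spag7, Trim7, Tuba8 and St3gal3 (r from 0.999 to 1.00), with log2 fold changes from -4.27 (Pla2g5) to -0.42 (Spag7). Those most like Myh7 were Cep164, Cryzl2, Ccnd3, Sgsm2 and Cul7, with log2 fold changes from 0.61 (Ccnd3) to 1.31 (Sgsm2). The step between the groups carries these values, and 1101 genes reached an r over 0.95 with Myh6 and 661 with Myh7. None of the 5 nearest Myh7 came near its size of change.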

How the data were processed

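RNA was sequenced from 6 samples labelled heart with the Illumina TruSeq RNA kit per the labels' protocols, a kit that does not mark strand. The authors deposited integer counts for each Ensembl gene identifier, and the deposited RPKM values were made by the authors from the same counts, a gene length and the library total. The build mm10 and the tools featureCounts 1.5.1, STAR 2.5.2b and cutadapt 1.9 are named per the submitters' processing notes; the handling of reads with several matches is not given in the sources used here. Symbols and positions came from GENCODE M21 (20081 of 20121 identifiers matched), and promoter sequences from RefSeq on GRCm38.p6.

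The count test used edgeR 4.0.16 under R 4.3.3 (filterByExpr at its defaults, TMM, quasi-likelihood F test, group as the only term), which kept 14877 genes and removed 5244. The SE of a log2 fold change is approximate, taken as the change over the root of F. DESeq2 1.42.0 and limma 3.58.1 on log2(RPKM + 1) or log2(RPKM + 0.1) served as alternatives. The test was tried on simulated data with known changes. Shares, sums and ratios were computed from RPKM in each heart. Same-numbered hearts were checked for pairing by the correlation of their deviations from the group means.

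The heavy chain genes and the 18 gene lists were chosen with earlier results of these data known. Genes named from a list were up to 4 called genes with the smallest adjusted p; pericyte, endothelial, fibroblast, leukocyte and red blood cell lists are given as counts and summed levels only. Unc45b, Smyd1, Trim63 and the cytokinesis and cortex genes that were not called were named after their values were seen. The 5 genes most like Myh6 and Myh7 were taken by Pearson's r of log2 CPM with a prior count of 2. Precision is limited by 3 hearts per group.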

Additional observations from a re-analysis of the deposited data

How the results depend on the processing

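Of the called heavy chain genes, Myh6, Myh7, Myh7b, Myh10 and Myh14 were called in the same direction in 15 of 15 alternatives, and Myh8 in the 13 that kept it. Where low counts were filtered, Myh8 was kept through its level in mutant hearts, so its calls there are no separate support. With 1 heart left out, 4 members were called higher and 2 lower in each case, 4273 to 5517 genes were called in all, 2039 to 2661 higher and 2234 to 2856 lower; the Myh7 share rose by 76.2 to 77.9 percentage points, and the log2 change of the summed level ran from -0.89 to -0.79 for Myh6 and Myh7 and from -0.86 to -0.75 for the 9 genes. Composition scaling moved the counts of calls: library totals alone gave 8686 genes, 7479 higher and 1207 lower. limma gave 7094 higher and 1160 lower with log2(RPKM + 1) and a filter, 7091 and 1155 with log2(RPKM + 0.1), and 6916 and 1170 without a filter. In these 4 settings Myh9 was called higher and the log2 fold change of Myh11 turned to 0.01, 0.02, 0.02 and 0.02 (0.011, 0.019, 0.024 and 0.019), and that of Ppp1r12b to 0.0081, 0.0048, 0.0050 and 0.0048, none of these called. The cause was not tested beyond the scaling itself.

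The rise in the Myh7 share of the pair, 77.1 percentage points, was 81.7 by raw counts and 81.4 per coding transcript length, a setting chosen after seeing the data. The Myh14 share of all heavy chains changed by 0.0169 points as reported and by -0.0651 by raw counts and -0.0564 per coding transcript length. The log2 change of the summed level, -0.81 for the 9 genes and -0.84 for Myh6 and Myh7, was -1.09 and -1.13 with TMM, -0.54 and -0.57 relative to thin filament genes, and -0.49 and -0.52 per coding transcript length. Adding 0.1 to RPKM moved the change in the log2 ratio of Myh3 to Myh8 from -2.57 to -0.81. A fit with the replicate number as a block called 3090 genes higher and 3229 lower, 6319 in all, and left 4 members higher and 2 lower. Same-numbered hearts correlated at 0.155, -0.0502 and 0.0956. For replicates 1 and 3 the same number was the best match, while control replicate 2 correlated best with mutant replicate 3 (0.0913). With 3 hearts per group these values cannot tell whether the numbers pair the hearts. Of 33 named partner and marker genes, 33 kept their call with DESeq2 and 28 with library totals alone. Every list count of 0 given for edgeR was also 0 at an unadjusted p under 0.05 and with DESeq2; limma on RPKM called 1 thin filament gene and 2 cardiomyocyte markers higher. With 1 heart left out, 1 to 3 light chains were called higher and 3 to 4 lower, 1 to 2 kinases and phosphatases higher and 2 to 3 lower, and 3 to 5 thin filament genes lower. Depth limits Myh8 and Myh3, with 4 to 9 counts per control library.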

Other observations

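Other cell types of the heart can also hold the nonmuscle chains. Over all genes tested edgeR called 18.1% higher and 19.5% lower. In the edgeR test, fibroblast markers gave 3 calls higher, none lower and 4 not called among 7 (7 higher with library totals alone, 5 without mutant replicate 1), with a summed level of 2470 to 2702 CPM in controls and 2782 to 3089 CPM in mutants. Endothelial markers gave 5 calls lower and none higher among 7 (1445 to 1567 and 1233 to 1323 CPM), and with library totals alone none was called; without control replicate 2 or mutant replicate 1, 3 were lower. Pericyte markers gave 1 higher and 3 lower among 6 (2227 to 2507 and 1962 to 2113 CPM), and with library totals alone 1 higher and none lower; without control replicate 1 or 2 or mutant replicate 2, 1 was lower. Leukocyte markers gave 5 lower and none higher among 6 (96.2 to 105.7 and 65.9 to 68.6 CPM). None of the 5 red blood cell markers tested was called, by edgeR or DESeq2 or at an unadjusted p under 0.05, though 4 were lower without mutant replicate 2, with 157 to 245 CPM in controls and 91.2 to 242 CPM in mutants. Their part in the nonmuscle values was not tested.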
